A study of Mus musculus with 8 samples.

Results

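The replication-dependent histone genes were read here as the gene rows whose name opens with Hist1h, Hist2h, Hist3h or Hist4h and whose mean count was at least 10. The rule gave 59 of the 17597 gene rows of the table, in 5 families: 6 genes for the linker histone H1, 14 for H2A, 17 for H2B, 10 for H3 and 12 for H4. All 59 rows with such a name passed the minimum, so no row lay just outside it, and the rows nearest to it were Hist2h2be at a mean count of 19.9 and Hist3h2bb-ps at 45.7. The mean count is the authors' mean, over all libraries, of read counts scaled to the depth of each library. 11 further genes with such names in the GENCODE annotation had no row, so the family counts, sums and shares leave them out.

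The cells were mouse embryonic stem cells of a Cast x 129S cross in which METTL3, the enzyme that methylates adenosine in RNA to m6A, carried the FKBP12 F36V degron, a domain through which dTAG-13 sends a protein to the proteasome. In every library the promoter of 1 endogenous Xist allele had been replaced with a TetOn promoter, and no doxycycline was given. The labels name the 129S allele, while the study's text places its METTL3 degron lines on a background with the Cast allele changed, so the allele is uncertain. There were 4 libraries of cells with dTAG-13 for 26 hours and 4 of cells without it, and each group held 2 libraries of clone C3 and 2 of clone H5. The cells grew on mitomycin-inactivated mouse fibroblasts with LIF and serum, and total RNA was sequenced without selection for poly(A). The table holds no value per library that is not part of the authors' own comparison, so what follows describes levels over all 8 libraries together, with no error between replicates and no comparison of treated with untreated cells. The deposited mean of Mettl3 itself was 684.

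Replication-dependent histones package new DNA during S phase: H2A, H2B, H3 and H4 form the nucleosome core and H1 binds the DNA between cores. Their genes lie in clusters, mostly lack introns, and give mRNAs that end in a conserved stem-loop in place of a poly(A) tail. The stem-loop is bound by SLBP and cut by a machinery built on the U7 small nuclear RNP, which is why these mRNAs are lost from poly(A)-selected libraries and are seen in total RNA. Embryonic stem cells spend much of their cycle in S phase.

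The stem-loop is the feature that unites the mRNAs, and it is shown here for 8 genes that cover every family and every variant of the stem. Sequences are from GENCODE transcripts on GRCm38, 5′ to 3′ in the sense of the mRNA with T for U, and capitals mark the hairpin of 16 bases: a stem of 6 complementary pairs and a loop of 4 bases.
Hist1h4d: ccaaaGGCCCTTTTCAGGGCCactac
Hist1h4b: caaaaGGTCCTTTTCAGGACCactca
Hist1h3f: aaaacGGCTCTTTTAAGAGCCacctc
Hist1h3b: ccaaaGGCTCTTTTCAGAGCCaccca
Hist1h2bk: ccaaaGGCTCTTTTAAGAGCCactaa
Hist1h2bj: ccaaaGGCTCTTTTCAGAGCCacgca
Hist2h2ac: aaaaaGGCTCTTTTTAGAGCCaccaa
Hist1h1d: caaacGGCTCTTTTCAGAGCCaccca

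A hairpin of this form followed the stop codon in 37 members, 22 to 55 bases after it, with a median of 32. The stem divided the families. All 27 hairpins found in H1, H2A, H2B and H3 genes opened with GGCTCT, as in Hist1h2bj and Hist1h3b above. All 10 found in H4 genes opened with GGCCCT or, in Hist1h4b and Hist1h4j, with GGTCCT, and the far side of the stem changed with it, so that the pairs were kept. Only 6 different hairpins occurred among the 37 genes. Of the 22 members without a hairpin, 18 have fewer than 60 annotated bases after the stop codon, or no annotated stop codon, so most of these annotations end before or near the place where it would lie. The other 4 were Hist1h2bc, Hist2h2be, Hist1h3g and Hist1h4a. Their mean counts ran from 19.9 for Hist2h2be to 3381 for Hist1h3g, so a missing hairpin in the annotation did not go with 1 level. The letters AATAAA of the polyadenylation signal were on the coding strand of the annotated transcripts of 19 members. They were looked for at any position and no share over all genes was taken, so this is a match of letters only.

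The genes lie in 4 places, and 1 of them gave most of the RNA. The Hist1 cluster on chromosome 13 (GRCm38, 21715763 to 23934851) holds 49 members and took 88.3% of the members' summed mean count. The Hist2 cluster on chromosome 3 (96219865 to 96270132) holds 6 members and took 9.51%. The Hist3 cluster on chromosome 11 (58948920 to 58956830) holds 3 members and took 0.632%. Hist4h4 lies alone on chromosome 6 (136801553 to 136804415) and took 1.51%. GENCODE gives 56 members a single exon, and gives 2 exons to some transcripts of Hist1h2bc, Hist1h2be and Hist1h2bp.

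The 59 genes took 0.733% of the summed mean count of all gene rows. Their median mean count was 1357, against 373 over the 13590 genes that passed the same minimum. Because histone mRNAs are short, the gap was wider per length. Divided by the bases of all annotated exons, the median member stood at 2115 per kb and the median of all 12921 such genes with a length at 81.7 per kb. On that scale 45 members lay above the 90th percentile of all genes, while Hist1h1t and Hist2h2be lay below the median. Within the members the RNA was uneven: the 10 with the highest mean count took 43.2% of the sum and the 10 with the lowest 1.36%. Coding lengths are alike within a family, so mean counts are compared as they are between its genes, and levels between families are given per kb.

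**Figure D1:**
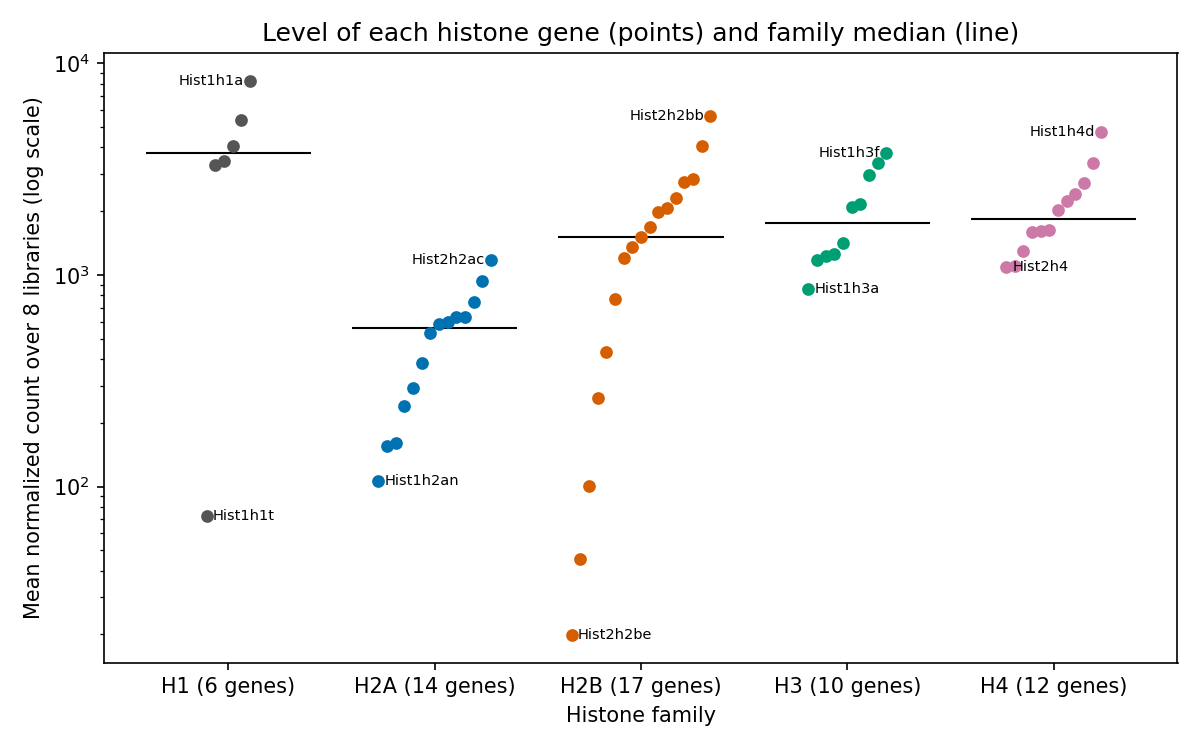
Each point is 1 histone gene, placed by family on the x axis and by its mean normalized count over 8 libraries on the y axis (log scale), and each line is the median of a family. H2A has the lowest family median, with genes between 106 and 1175, while H1 and H2B each hold genes far under the rest, Hist1h1t at 72.9 and Hist2h2be at 19.9.

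H1 linker histones bind the nucleosome where DNA enters and leaves it, and their 6 genes encode 6 different proteins. They took 22.9% of the members' sum, with a 95% Wilson interval of 22.7% to 23.2%. Such intervals cover counting error only, taken on the mean count, and not the spread between libraries. Hist1h1a had the highest mean count of all 59 members, at 8261. Hist1h1d followed at 5361 and Hist1h1b at 4063. Hist1h1e and Hist1h1c, both linker histones that many cell types make, stood close together at 3464 and 3300. Hist1h1t, the linker histone of the testis, had 72.9, so that the highest and lowest H1 gene were 113-fold apart. The first 3 genes held 72.1% of the family. Per coding kb the order of the genes was the same, from 12928 for Hist1h1a to 116 for Hist1h1t. By exonic length Hist1h1d falls to 722 per kb, because GENCODE gives it an exonic length of 7425 bases, most of it after the stop codon, where RefSeq gives the gene 776.

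By mean count and by exonic or coding length H2A was the lowest family. Per kb of sequence found in no other annotated gene it was not. Its median of 2682 there stood above the 2175 of H1 and below the 3464 of H2B. Among members with at least 50% of their sequence found in no other gene, H2A was again the lowest by exonic length, at 543 per kb. H2A and H2B enter the core as dimers, so the nucleosome takes as many of one as of the other, yet the 14 H2A genes took 6.71% of the members' sum (6.57% to 6.87%) and the 17 H2B genes 27.2% (26.9% to 27.4%). Summed per coding kb, H2A stood at 18435 and H2B at 76562. The H2A sum leaves out the 6 replication-independent H2A variants described further on, which stood at 40664 per coding kb. Hist2h2ac led H2A with a mean count of 1175. Hist1h2ak had 940 and Hist1h2ai 742. The lowest were Hist1h2ad at 156 and Hist1h2an at 106, which is 11.0-fold under the highest. The H2A median was 559, and per coding kb it was 1433, against 4214 for H2B, 4286 for H3, 5673 for H1 and 5909 for H4. All 14 H2A genes overlap an annotated gene on the opposite strand, which for 13 of them is a predicted miRNA gene. The same held for 3 of the other 45 members. None of these opposite-strand genes had a row in the table. Whether reads were counted by strand is uncertain, and the part of these overlaps in the H2A level was not tested.

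H2B was the family with the widest range. Hist2h2bb was the highest at a mean count of 5640, followed by Hist1h2bk at 4066 and Hist1h2bj at 2841. At the other end stood Hist3h2bb-ps, annotated as a processed pseudogene, at 45.7 and Hist2h2be at 19.9, which is 283-fold under Hist2h2bb although both are genes of the Hist2 cluster. Hist1h2ba, the H2B of the testis, had 263, and its H2A partner Hist1h2aa had 240. Of the 3 members with 2 annotated exons, Hist1h2bc had 2733, Hist1h2be had 1512 and Hist1h2bp had 434. Hist1h2be overlaps Hist1h1e on the same strand in the annotation, so that reads in the shared stretch cannot be told apart.

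By mean count, H3 and H4 were the most even families. By exonic length the H4 genes ran from 562 to 6154 per kb and the H2A genes from 247 to 2391. The evenness of H4 thus depends on the length used. The 10 H3 genes ran from 856 for Hist1h3a to 3769 for Hist1h3f, a 4.40-fold range, and took 19.0% of the members' sum (18.8% to 19.2%). Hist1h3g had 3381 and Hist1h3e 2974, while Hist1h3c, the second lowest, had 1180. The 12 H4 genes ran from 1085 for Hist2h4 to 4750 for Hist1h4d, a 4.38-fold range, and took 24.2% (23.9% to 24.4%). Hist1h4i had 3372 and Hist1h4a 2729, while Hist1h4j had 1105. No gene of either family was as low as the H2A median.

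Many of these genes encode the same protein, so their levels can be compared without a difference in product. Such genes also share much sequence, which limits the reads that could be counted, as described further on. The 12 H4 genes encode 1 protein of 103 amino acids from 12 different coding sequences. The stretch from base 64 to base 93 of the coding sequence differs between all 12 and shows how close they are. Here capitals mark the bases that differ from the most common base at that position, for the 3 highest and the 2 lowest genes.
Hist1h4d: gtTctgcgcgacaacatccagggcatcacc
Hist1h4i: gtgctTcgGgacaacatccagggcatcacc
Hist1h4a: gtTctCcgcgaTaacatccagggcatcacc
Hist1h4j: gtgctgcgcgacaacatccagggcatcacG
Hist2h4: gtCTtgcgTgacaacatccagggTatcacc

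The 10 H3 genes encode 2 proteins. The 6 genes of the first ran from 1180 for Hist1h3c to 3769 for Hist1h3f, a 3.20-fold range. The 4 genes of the second ran from 856 for Hist1h3a to 3381 for Hist1h3g, a 3.95-fold range. The largest group in H2A was 7 genes for 1 protein, from 106 for Hist1h2an to 742 for Hist1h2ai, a 6.98-fold range. In H2B, 4 genes shared 1 protein over a 2.36-fold range, from Hist1h2bn at 1204 to Hist1h2bj at 2841. Another 3 shared 1 over a 1.81-fold range, from Hist1h2be at 1512 to Hist1h2bc at 2733. Genes for 1 protein thus differed by up to 6.98-fold in mean count. Both ends of that range are uncertain. Of the 81-base stretches of Hist1h2an 15.7% were found in no other annotated gene, and of those of Hist1h2ai 10.9%. Per kb of such sequence the 7 H2A genes ran from 290 for Hist1h2ac to 21834 for Hist1h2ai.

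H2A and H2B genes often stand back to back and start from the stretch of DNA between them. 11 pairs had starts at most 500 bases apart, on opposite strands. The H2B gene was higher in 9 of the 11, with a median ratio of H2B to H2A of 4.08. The largest ratio of mean counts in that direction was that of Hist1h2ah at 292 and Hist1h2bk at 4066, whose starts are 301 bases apart, a ratio of 13.9. Hist1h2ad at 156 and Hist1h2bf at 1980 followed with a ratio of 12.7. Per kb of sequence found in no other annotated gene, a measure explained further on, the first ratio fell to 4.18 and the second stayed at 12.6, so the order of these pairs depends on the scale. The pair of Hist1h2aa and Hist1h2ba stood nearly level at a ratio of 1.10, and that of Hist1h2ak and Hist1h2bn at 1.28. The reverse was seen in Hist3h2a at 529 with Hist3h2bb-ps at 45.7, and in Hist2h2ac at 1175 with Hist2h2be at 19.9, a ratio of 0.0169. Per coding kb the median ratio was 4.15 over the 10 pairs in which both genes have a coding part, and H2B was higher in 9 of them. On the scale of unique sequence, H2B was higher in 8 of the 11 and the median ratio was 2.201.

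**Figure D2:**
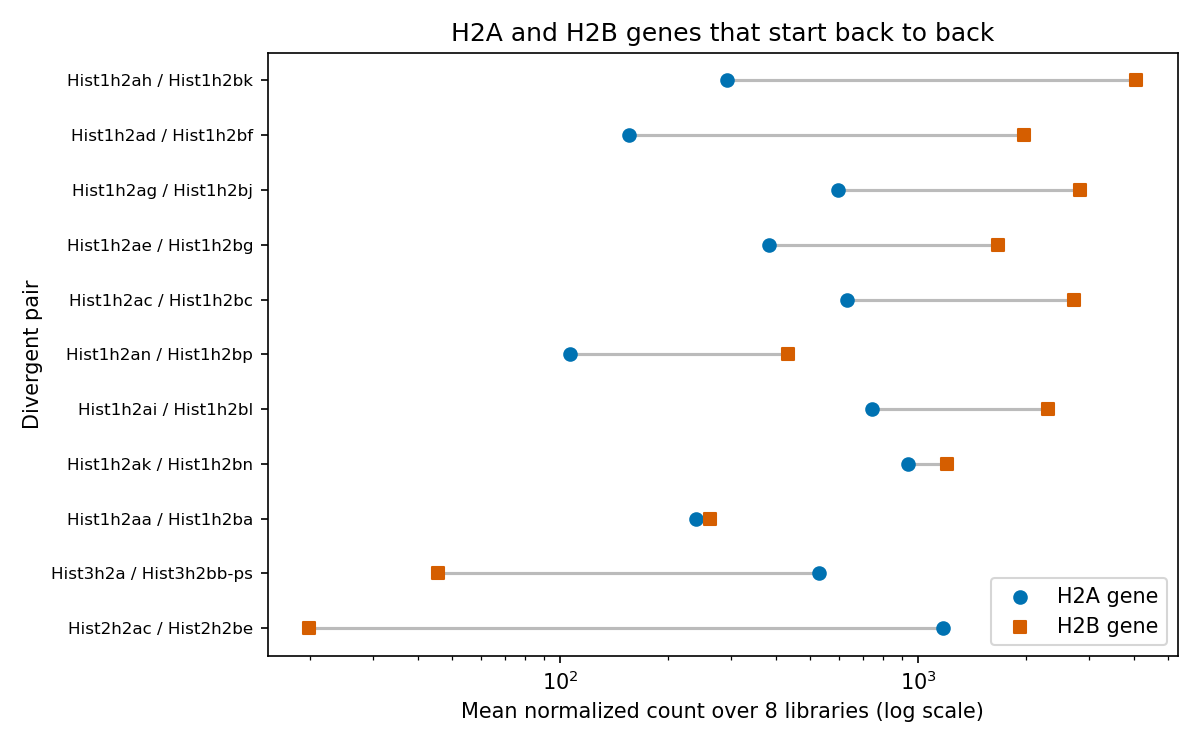
Each row is 1 divergent pair, with the mean normalized count over 8 libraries of its H2A gene (circle) and H2B gene (square) on the x axis (log scale). The H2B gene is to the right in the upper 9 rows, and in the lowest row Hist2h2ac at 1175 lies far to the right of Hist2h2be at 19.9.

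The promoters of the higher gene in the pairs with the largest and the smallest ratio of mean counts are printed here for comparison. They are from RefSeq on GRCm38.p6, run from 250 bases before to 50 after the start of the gene in its own direction, and carry in capitals, on either strand, the TATA box TATAAA, the CCAAT box CCAAT and the octamer ATTTGCAT. Hist1h2bk lies on the plus strand of chr13:22035571-22035870 and Hist2h2ac on the minus strand of chr3:96220831-96221130.
Hist1h2bk: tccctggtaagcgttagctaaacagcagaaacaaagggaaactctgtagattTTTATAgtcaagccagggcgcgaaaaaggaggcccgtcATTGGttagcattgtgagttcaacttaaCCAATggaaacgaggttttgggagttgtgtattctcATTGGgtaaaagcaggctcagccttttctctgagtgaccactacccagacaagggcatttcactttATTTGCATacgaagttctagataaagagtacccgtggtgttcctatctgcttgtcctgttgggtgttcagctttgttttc
Hist2h2ac: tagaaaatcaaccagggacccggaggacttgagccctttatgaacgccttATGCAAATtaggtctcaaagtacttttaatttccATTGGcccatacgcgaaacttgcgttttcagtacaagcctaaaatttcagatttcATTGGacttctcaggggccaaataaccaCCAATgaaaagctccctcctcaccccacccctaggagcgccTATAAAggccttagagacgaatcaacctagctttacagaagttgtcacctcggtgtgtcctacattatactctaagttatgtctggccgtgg

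Both promoters hold 3 CCAAT boxes, 1 TATA box and 1 octamer, although Hist1h2bk is the H2B gene and Hist2h2ac the H2A gene of its pair. In Hist1h2bk the octamer lies nearer to its own start and the TATA box reads on the opposite strand, toward Hist1h2ah. In Hist2h2ac the TATA box lies near its own start and the octamer reads on the opposite strand, toward Hist2h2be. A promoter was matched for 53 members. A gene with more than 1 promoter was counted if any of them held the motif. TATAAA was found for 33 members (62.3%), against 15.7% of 27025 genes with promoters of the same length. CCAAT was in 45 (84.9%), against 41.1%. The families differed in this motif: every matched promoter of H1, H2A, H2B and H3 had it, and 3 of 11 H4 promoters. The octamer was in 7 of 14 H2A and 7 of 14 H2B promoters and in none of H1, H3 or H4, against 1.97% of all these genes. The promoters of a divergent pair overlap in part, so both genes can count the same motif. None of these motifs contains another, and a match of letters is a description only.

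The genes resemble each other and only reads with 1 place in the genome were kept, so read pairs wholly within shared sequence could not be counted. A pair that reached beyond the shared stretch could be, so the windows below are only a guide to what could be counted. Every stretch of 81 bases, the length of 1 read, was looked for in all annotated transcripts of other genes. In 7 members no window was found in another gene. In the median member 67.1% of these windows were found in no other gene, and 83.2% of windows of 150 bases, closer to the reach of a read pair. The medians by family were 99.3% for H1, 77.8% for H4, 68.1% for H2B, 56.2% for H2A and 50.0% for H3. In 18 members fewer than 50% of the windows were found once: 7 of H2A, 5 of H3, 4 of H2B, 2 of H4 and none of H1. The lowest was Hist1h3h with 6.65%, followed by Hist1h2ah with 10.2%, Hist1h2ai with 10.9% and Hist1h4m with 11.2%. The other 14 were Hist1h2af, Hist1h2ag, Hist1h2ab, Hist1h2ad, Hist1h2an, Hist1h2bk, Hist1h2bf, Hist1h2bl, Hist1h2bn, Hist1h3e, Hist1h3b, Hist2h3b, Hist1h3i and Hist1h4k. The levels of these 18 genes are uncertain. Some of their GENCODE transcripts, such as that of Hist1h3h, end at the stop codon, so bases after it were not searched. That transcript has 411 bases, where RefSeq gives the gene 488. The levels per kb of unique sequence share this limit. No pair of coding sequences within a family was identical: the median identity between 2 genes of equal length was 97.6% in H3, 97.2% in H2A, 94.8% in H2B and 93.9% in H4.

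The share of unique sequence was set beside the level of single genes. Across the 58 coding members, Spearman's rho between the share of unique windows and the mean count per coding kb was 0.051, a description over genes that share sequence and libraries. Hist1h2bk had the second highest mean count of H2B with 27.8% of its windows unique, and Hist2h2be the lowest with 100%.

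**Figure D3:**
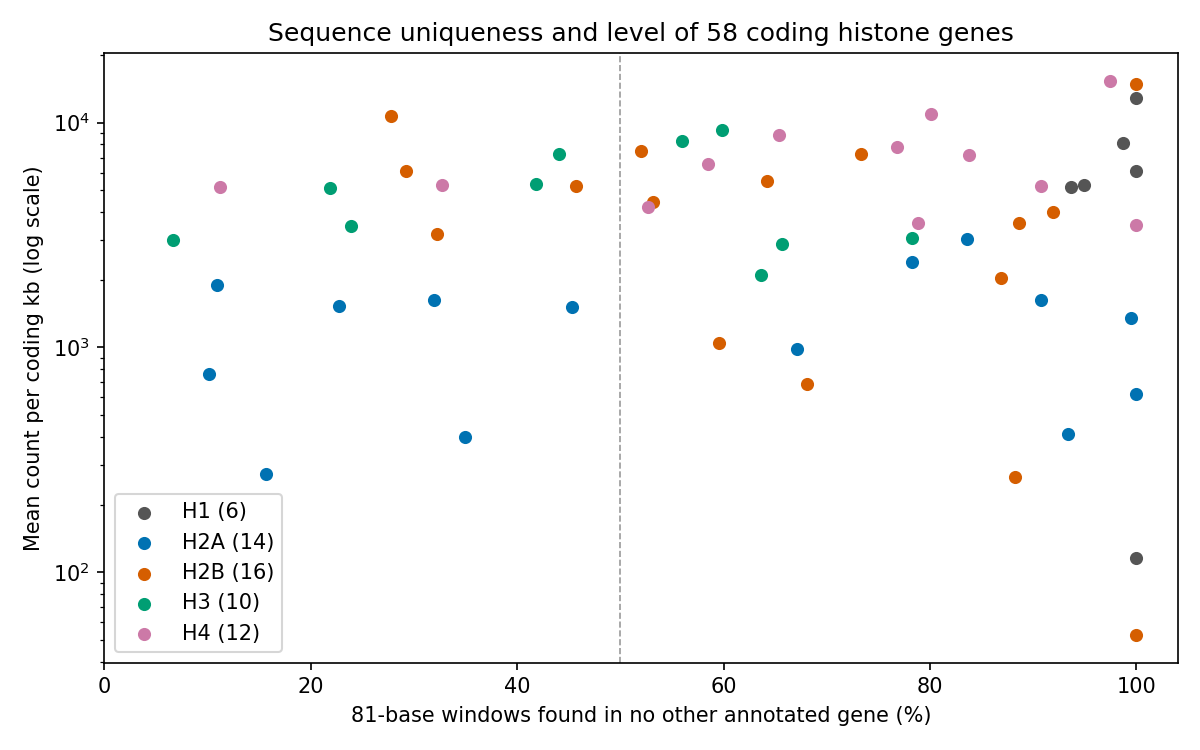
Each point is 1 of 58 coding histone genes, with the percent of its 81-base windows found in no other annotated gene on the x axis and its mean count per coding kb on the y axis (log scale), and the dashed line at 50%. The H2A points lie low on both sides of the line, at most at 3036, and H1 points lie at the right edge.

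The order of the families depended on the length used. By exonic length the family medians were 4069 per kb for H4, 3215 for H3, 2364 for H2B, 1955 for H1 and 668 for H2A. By coding length H1 moved from the fourth place to the second, at 5673. By RefSeq gene length, which spans introns, H1 was first at 4834 and H2A last at 1103. By the kb of windows found once, H3 was first at 9268 and H4 second at 7145, and H1 was last at 2175, under H2A at 2682. H2A was thus lowest by exonic, coding and RefSeq length but not per kb of windows found once. Among the members with at least 50% of windows found once, H2A was again the lowest by exonic length. Its median there was 543 per kb over 7 genes, against 808 for H2B, 1872 for H3, 1955 for H1 and 3723 for H4.

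**Figure D4:**
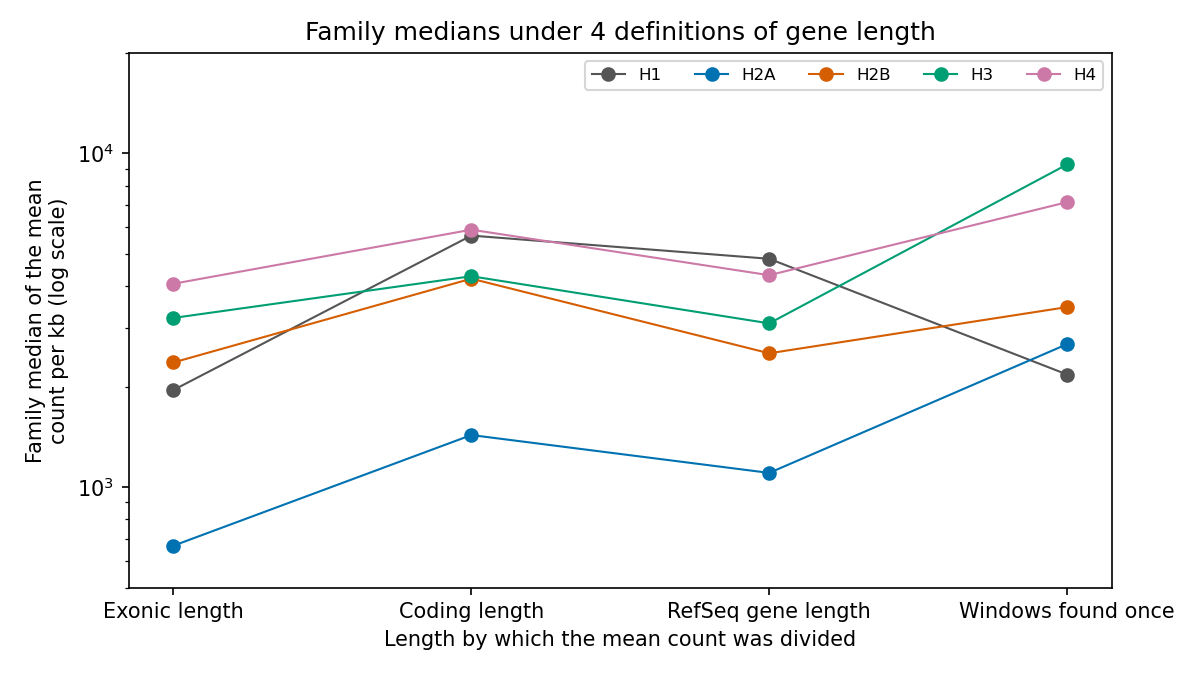
Lines join the family medians of the mean count per kb (y axis, log scale) under 4 definitions of gene length (x axis). H2A is lowest under the first 3, and under windows found once it rises to 2682, above H1 at 2175.

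Cells also make replication-independent histones, which can be placed in chromatin outside S phase as well and come mostly from polyadenylated mRNAs. All 11 genes of that list had a row, from H1fx at 29.4 to H2afz, the variant H2A.Z, at 12598. Their share relative to the clustered genes differed by family. In H1, the 6 clustered genes summed to 73.0 times the 2 replacement genes H1f0 and H1fx per coding kb. In H3, the 10 clustered genes summed to 1.13 times H3f3a, H3f3b and Cenpa per coding kb, with H3f3a at a mean count of 10821 and H3f3b at 6424. In H2A, the 14 clustered genes summed to 0.453 times the 6 variants per coding kb, and H2afz alone stood at 32807 per coding kb, above the 18435 of all 14 together. By exonic length these ratios were 137, 5.87 and 1.51, so in H2A the clustered genes are then the higher. The choice of length decides the direction in H2A.

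A list of genes for the machinery that makes histone mRNA was read beside the members. All 24 genes of the list for 3′ end formation and turnover had a row, with mean counts from 262 to 5936 and a median of 1700. Slbp, which encodes the stem-loop binding protein, had 2653. Lsm10 and Lsm11, which encode the proteins particular to the U7 RNP, had the 2 lowest mean counts of the list, at 368 and 262. Zfp473, a zinc finger protein of the same complex, had 1501, and Cpsf3, which encodes the endonuclease, had 1963. Npat, the coactivator of histone genes at S phase, had 1818, and Casp8ap2, known as FLASH, had 3259. Per coding kb the 22 genes of it with a length had a median of 1584, and only Snrpb, Snrpe, Snrpf and Snrpg of it stood above the H4 median of 5909. Those encode ring proteins that the spliceosomal snRNPs share. Per coding kb Lsm11 was still the lowest at 242, but Lsm10 at 1006 stood above genes such as Sympk at 303 and Npat at 427.

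The letters GGACT, the most typical setting of m6A, were in the coding sequence of 17.2% of the 58 coding members, against 77.6% of 12531 coding genes. All 10 members with it were H3 genes, each with 1, at base 231 of the coding sequence. It lies in a stretch that was the same in 9 of the 10 and is printed here with GGACT in capitals for the highest H3 gene and for the one that differs.
Hist1h3f: cgagatcgcgcaGGACTtcaagaccgacc
Hist2h3b: cgagatcgcgcaGGACTtcaagacggacc

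No coding sequence of H1, H2A, H2B or H4 held it. Histone coding sequences are short. Per kb the 58 members had a mean of 0.419, against 1.21 for all coding genes, and the H3 genes had 2.43. The search covered the coding strand only, and says nothing of whether the site is methylated. The median GC content of the members' coding sequences was 63.9%, against 53.2% for all coding genes.

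The labelled cell type was checked with marker genes. All 9 markers of embryonic stem cells had a row, with mean counts from 1019 for Utf1 to 11934 for Pou5f1. Of 8 fibroblast markers, all had a row: the fibrillar collagens Col1a1 and Col1a2 had 19.8 and 13.8, while Fn1 had 4941 and Vim 2073. Feeders do not divide after mitomycin, and their part in the histone levels was not tested. Over all libraries together, the share of cells in S phase and the histone mRNA per cell cannot be told apart.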

How the data were processed

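Total RNA of 8 libraries was measured, though the extraction text of the labels describes chromatin RNA. Per the study's methods, rRNA reads were removed with bowtie2, the rest placed by STAR on an N-masked mm10 genome with unique alignments kept, duplicates removed with Picard, and genes and transposable elements counted by the authors with TEtranscripts, which scales counts by library. The study took its gene annotation from the UCSC genome browser, with the version not given in the sources used here. The authors deposited 1 table of 18694 features, and the value used is its mean normalized count, a signal that is never negative, averaged by the authors over all 8 libraries and not divided by length. The depth of each library is unknown. The other 5 columns hold the fold change, its standard error, statistic, p-value and adjusted p-value of the authors' comparison and were not used.

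Genes were matched by name to GENCODE vM21 (GRCm38) for exons and coding parts. 669 of 13590 genes had no single match and no length. Promoters were from RefSeq. Python 3.11.15, pandas 2.3.3, numpy 2.4.6 and scipy 1.17.1 were used, and the sequence searches were tested on simulated data. Named in the text were the 3 highest and 2 lowest genes of each family, those nearest the minimum, those with 2 exons or fewer than 50% unique windows, genes with 60 or more bases after the stop codon but no hairpin, and genes of fixed companion lists. Hist1h2aa, Hist1h2ba and the ends of pairs and protein groups were named after their values were seen. The members and lists were chosen with earlier results of these data known. No test was made, since no value per library was used. Alternatives were other minimums, denominators and lengths.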

Additional observations from a re-analysis of the deposited data

How the results depend on the processing

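The number of genes was 59 with a minimum mean count of 10 or 1, and 56 with 100. Their share of the summed mean count was 0.656% with transposable elements in the sum. Without its most abundant gene, each family's share was 16.5% for H1, 5.68% for H2A, 23.1% for H2B, 16.04% for H3 and 20.6% for H4. The family medians per exonic kb, in the order H1, H2A, H2B, H3 and H4, became 5673, 1433, 4214, 4286 and 5909 by coding length. They became 4834, 1103, 2518, 3096 and 4317 by RefSeq gene length, which spans introns, and 2175, 2682, 3464, 9268 and 7145 by kb of windows found once. With a minimum of 100, H1 became 2115 and H2B 2709, and with single-exon genes H2B became 2934. In genes with at least 50% of windows found once, H2A became 543, H2B 808, H3 1872 and H4 3723. The last of these choices, RefSeq length and windows found once were added after seeing the data. Uniqueness over the whole genome was not run, since only annotated transcripts could be searched. The longest transcript gave the same medians. Of the 44 values under an alternative, 28 moved and 16 did not. No paired analysis was possible because the results come from no test and the means pool all libraries. For the same reason no replicate could be left out, and intervals for the shares treat the mean count as the reads of 1 library.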

Other observations

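The proteins that carry new histones to DNA were measured beside the genes described above. All 14 genes of the chaperone list had a row, with mean counts from 673 for Asf1b to 14191 for Atrx and a median of 5186. Nasp, which binds H1 and H3 with H4 before they reach chromatin, had 9339. Supt16 and Ssrp1, the subunits of FACT, had 9667 and 8232, and Mcm2, the helicase subunit that also binds H3 and H4, had 7643. Chaf1a and Chaf1b, which place H3 and H4 behind the replication fork, had 1901 and 1330. Per coding kb the median of the chaperone list was 2394. On that scale Rbbp7 was the highest at 6599 and Hira the lowest at 410, while Atrx at 1911 stood under the median.

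All 8 genes of the list for transcription of histone genes had a row, from Hinfp, which encodes a factor that binds H4 promoters, at 349 to Ccne1, which encodes cyclin E1, at 5038. Pou2f1, which encodes a factor that binds the octamer, had 1735.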
